A study of Mus musculus with 4 samples.

Results

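The complement genes described here are 9 of the 35798 genes named in the count table: C1qa, C1qb and C1qc (the chains of C1q), C2, Cfb, C3, Cfp and the anaphylatoxin receptor genes C3ar1 and C5ar1. They were taken by symbol and selected on their CPM in these same libraries, so the difference of each between genotypes is given as a description without a test. CPM values are counts scaled to library size by edgeR's TMM method. RNA was measured in Ly49H+ NK cells sorted from spleen on Day 3.5 after infection with murine cytomegalovirus (MCMV), with 2 libraries of wild-type CD45.1 cells and 2 of TNFR2 KO CD45.2 cells. Donor cells of both genotypes were transferred together into NSG mice, which have no T, B or NK cells of their own but keep macrophages, granulocytes and other myeloid cells. The same-numbered wild-type and TNFR2 KO libraries came from 1 pool of 3 host spleens, and the mice were young adults by the study's methods. The TNFR2 KO mice are a germline line with Tnfrsf1b disrupted in every cell. Effects of genotype, of the CD45 allele and of the gate used in sorting cannot be told apart, and NSG leukocytes carry the CD45.1 allele, as the wild-type donor cells do.

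Complement is a cascade of plasma proteins that tags microbes and dying cells. The classical pathway starts when C1q binds to antibody or to a cell surface and, of its proteases C1r and C1s, C1s cuts C4 and C2. The lectin pathway starts from ficolins and mannose-binding lectins, and the alternative pathway starts from C3 itself with factor B (Cfb) and is stabilized by properdin (Cfp). All routes meet at C3, whose fragments coat targets, and the small fragments C3a and C5a call in leukocytes through C3aR and C5aR1. The liver makes most plasma complement, while macrophages are the main source of C1q and a known local source of C3, factor B and properdin.

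The libraries held between 32713054 and 39543464 counts, and the all-gene test covered 13822 genes. Tnfrsf1b, the targeted gene, was at 265 and 269 CPM in wild-type and at 55.1 and 58.6 CPM in TNFR2 KO. The 21.3% that was left could not be resolved to parts of the transcript from gene totals, and its source was not tested. Duplicates differed by more than counting noise. The paper describes a single experiment in duplicate on pooled spleens, so p-values measure the spread within that experiment and not between repeats of it. Of the tested genes, 11.8% were called lower and 1.56% higher in TNFR2 KO (edgeR's quasi-likelihood test, adjusted p under 0.05 and a log2-fold change beyond 1). All 9 complement genes passed the filter on low counts, and all 9 met the criterion for lower genes, a count from which nothing is read because the genes were selected on this difference. Log2-fold changes are TNFR2 KO relative to wild-type, and their median was -2.87 for the 9, against -0.003 for all tested genes. Both wild-type libraries lay above both TNFR2 KO libraries for each of the 9 genes, as they did for 37.7% of the tested genes.

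C1q, the recognition molecule of the classical pathway, is built from 3 chains whose genes lie side by side on the minus strand of chromosome 4 (GRCm38, mm10), within 18.7 kb between 136880129 and 136898803. C1qa was at 70.5 and 76.4 CPM in wild-type and at 10.5 and 10.7 CPM in TNFR2 KO. C1qb measured 59.7 and 62.4 CPM in wild-type and 9.54 and 8.96 CPM in TNFR2 KO. C1qc measured 67.2 and 65.8 CPM in wild-type and 9.02 and 9.21 CPM in TNFR2 KO. The chains were thus all low in both TNFR2 KO libraries and the genotypes did not overlap. The log2-fold changes were -2.79 (standard error 0.0624) for C1qa, -2.72 (standard error 0.062) for C1qb and -2.87 (standard error 0.0576) for C1qc. The chains kept close to the same proportions. Per length of transcript, C1qa made up 38.0% of C1q RNA in wild-type replicate 1 and 38.4% in TNFR2 KO replicate 1. C1qb made up between 30.7% and 33.2% over the 4 libraries, and C1qc between 28.4% and 31.3%. Their summed level was 197 and 205 CPM in wild-type and 29.1 and 28.9 CPM in TNFR2 KO. In bulk samples such as these, fewer cells that express a gene and less RNA per cell cannot be told apart.

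**Figure D1:**
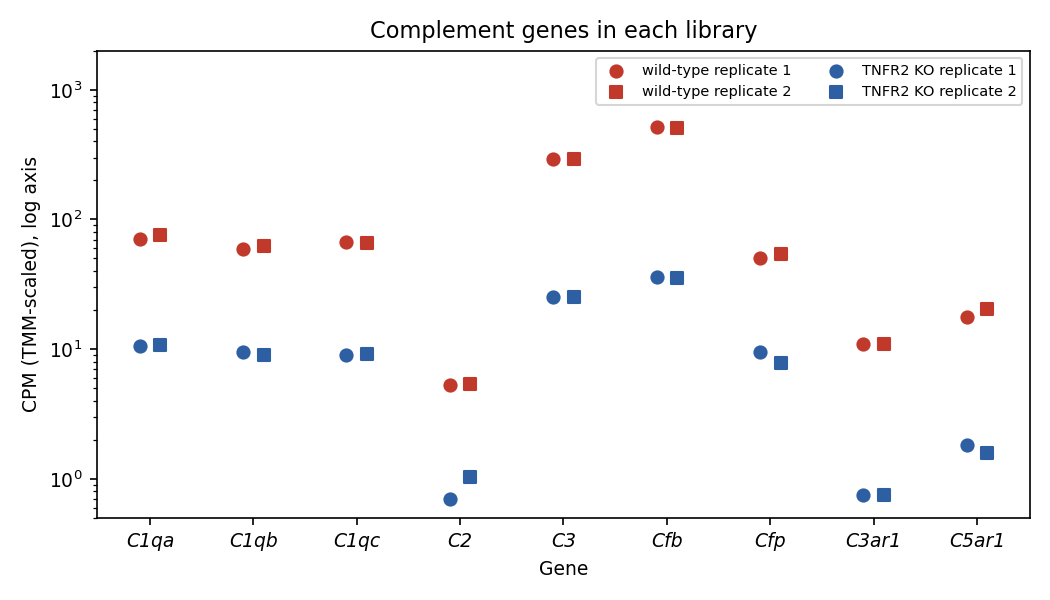
Each point is the level of a gene in a library, in TMM-scaled CPM on a log axis, with wild-type libraries in red, TNFR2 KO libraries in blue, circles for replicate 1 and squares for replicate 2. The genotypes are apart for every gene, from Cfb at 512 and 508 CPM in wild-type down to C2 at 0.698 and 1.03 CPM in TNFR2 KO, the duplicates that lie furthest apart.

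C3, the component on which all the pathways converge, lies at 57203970 to 57228136 on chromosome 17 (minus strand). It measured 292 and 291 CPM in wild-type and 25.2 and 25.3 CPM in TNFR2 KO. This is a mean of 291 ± 1.19 CPM (SD, n = 2) against 25.3 ± 0.0988 CPM (SD, n = 2), so 8.67% of the wild-type level was left, and the log2-fold change was -3.53 (standard error 0.035). Duplicates of C3 differed by under 1% of their mean, and the genotypes were far apart. The TNFR2 KO values rest on 975 and 812 counts, so duplicates this close do not measure the error. None of its sequence, in stretches of 31 bases as Kallisto uses by default, was found in another gene.

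Cfb encodes factor B, the protease of the alternative pathway C3 convertase, and C2 encodes its counterpart in the classical and lectin pathways. They are neighbours on chromosome 17, both on the minus strand, with Cfb at 34856374 to 34862518 and C2 at 34862604 to 34898265. Cfb, which was also the most abundant of the 9 per length, measured 512 and 508 CPM in wild-type and 36.3 and 35.3 CPM in TNFR2 KO, and its log2-fold change was -3.83 (standard error 0.032). C2 measured 5.27 and 5.4 CPM in wild-type and 0.698 and 1.03 CPM in TNFR2 KO on 27 and 33 counts. Its log2-fold change was -2.64 with a standard error of 0.222, the largest error of the group. Both counts are uncertain because the gene Gm20547 spans them on the same strand. Of their 31-base stretches, 75.5% for Cfb and 40.8% for C2 also occur in other genes, almost all in Gm20547. Gm20547 itself measured 2.82 and 0.57 CPM in wild-type and 0 and 0.281 CPM in TNFR2 KO, and its duplicates were further apart than those of Cfb or C2. The sum of the 3 genes does not depend on that division. It was 520.4 and 514 CPM in wild-type and 37 and 36.6 CPM in TNFR2 KO, which leaves 7.11% of the wild-type level and is close to Cfb alone. C2 and Gm20547 together came to 14.3% of wild-type, compared with 16.2% for C2 alone.

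Cfp encodes properdin, the only known positive regulator of the cascade, at 20925454 to 20931555 on chromosome X (minus strand). It measured 50.3 and 53.8 CPM in wild-type and 9.51 and 7.8 CPM in TNFR2 KO. At 16.6% of the wild-type level, Cfp had a log2-fold change of -2.58 (standard error 0.0799), which was not separated from that of C2, and its TNFR2 KO duplicates differed more than those of C1q or C3.

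The receptor genes had low counts. C3ar1 encodes the receptor for C3a and lies on chromosome 6 at 122847138 to 122856161 (minus strand). It was at 10.9 CPM in both wild-type libraries and at 0.75 and 0.749 CPM in TNFR2 KO. These last values rest on 29 and 24 counts, so duplicates this close do not measure the error, which the standard error covers. C5ar1, the receptor for C5a, lies on chromosome 7 at 16246743 to 16259540 (minus strand), and it measured 17.6 and 20.4 CPM in wild-type and 1.81 and 1.59 CPM in TNFR2 KO. The log2-fold changes were -3.86 (standard error 0.167) for C3ar1 and -3.47 (standard error 0.137) for C5ar1. C3ar1 had the largest change of the 9 genes, but it and Cfb were closer to each other than the standard error of C3ar1.

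Upstream sequence is shown for the C1q genes, which share a locus, and for C3 and its receptor gene C3ar1, which lie on different chromosomes. Sequences are from RefSeq on GRCm38.p6, which held a promoter entry for 6 of the 9 genes, all but C1qa, C2 and Cfb. Each reads 5′ to 3′ toward the gene on the minus strand, and bases inside any annotated transcript of the gene were left out. The bases shown are chr4:136886201-136886450 for C1qb, chr4:136893066-136893164 for C1qc, chr17:57228137-57228386 for C3 and chr6:122856162-122856407 for C3ar1. Capitals mark matches, on either strand, to 6 motifs bound by factors that act in myeloid or inflamed cells.
C1qb: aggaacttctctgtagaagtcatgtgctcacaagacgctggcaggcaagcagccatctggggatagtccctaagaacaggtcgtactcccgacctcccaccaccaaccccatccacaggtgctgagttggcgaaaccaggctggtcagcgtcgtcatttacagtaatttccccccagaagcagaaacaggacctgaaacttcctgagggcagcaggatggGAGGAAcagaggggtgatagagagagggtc
C1qc: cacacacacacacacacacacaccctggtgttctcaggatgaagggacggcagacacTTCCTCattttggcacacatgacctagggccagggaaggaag
C3: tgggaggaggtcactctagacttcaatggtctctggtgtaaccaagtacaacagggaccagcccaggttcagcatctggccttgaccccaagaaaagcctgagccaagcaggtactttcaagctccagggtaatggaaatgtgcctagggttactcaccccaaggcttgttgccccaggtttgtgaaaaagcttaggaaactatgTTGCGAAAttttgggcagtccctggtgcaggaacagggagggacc
C3ar1: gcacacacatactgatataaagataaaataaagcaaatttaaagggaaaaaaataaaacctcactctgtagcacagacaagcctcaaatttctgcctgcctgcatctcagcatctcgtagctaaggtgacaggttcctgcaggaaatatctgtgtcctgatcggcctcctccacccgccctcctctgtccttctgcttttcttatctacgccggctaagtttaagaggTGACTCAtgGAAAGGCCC

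Distances are counted from the start in each promoter entry. For C1qc, the 151 bases next to it are not shown because they lie inside an annotated transcript. The PU.1 motif GAGGAA was present before C1qb, beginning 30 bases upstream of the start, and in reverse before C1qc, beginning 193 bases upstream. Among all 32851 promoter entries, 23.3% hold this motif within the same 250 bases, so 2 of the 6 entries is a description only. C3 held the C/EBP motif TTGCNNAA, which is in 9.56% of all entries, beginning 45 bases upstream. C3ar1 held the AP-1 motif TGANTCA and, in reverse, the NF-kB motif GGGNNTTTC, which are in 6.75% and 3.72% of all entries. These lie next to each other without overlap, beginning 22 and 13 bases upstream. The interferon-stimulated element GAAANNGAA, in 7.13% of all entries, was matched only in the entry of C5ar1, at bases that fall inside an annotated transcript of that gene. The interferon-gamma activated site TTCNNNGAA, in 7.02% of all entries, was in none of the 6, and Cfp had no match to any of the motifs.

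Levels of different genes can be compared only per length, and CPM was divided for this by the kilobases of the longest annotated transcript. Per length, Cfb was the most abundant in wild-type at 185 ± 1.18 CPM per kb (SD, n = 2), followed by C1qa at 70.6 ± 4 CPM per kb. C3 at 56.7 CPM per kb, C1qb at 56.1 CPM per kb and C1qc at 55.3 CPM per kb came next. The libraries of C1qb overlapped those of both C3 and C1qc, so its place in the order is not set, while C3 lay just above C1qc in both. Cfp was at 31.8 CPM per kb, C5ar1 at 7.47 CPM per kb, C3ar1 at 2.53 CPM per kb and C2 at 2.02 CPM per kb. In TNFR2 KO, Cfb was still first at 13.0 CPM per kb and C1qa second at 10.2 CPM per kb. C3, at 4.92 CPM per kb, was there below C1qb at 8.5 CPM per kb and C1qc at 7.58 CPM per kb, and it was not separated from Cfp, whose libraries were at 5.82 and 4.77 CPM per kb. C3ar1, at 0.174 CPM per kb, was below C2, at 0.327 CPM per kb, the opposite order to wild-type. Both rest on few counts in TNFR2 KO, and the division of reads between C2 and Gm20547 is uncertain, so the place of C2 is not set.

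**Figure D2:**
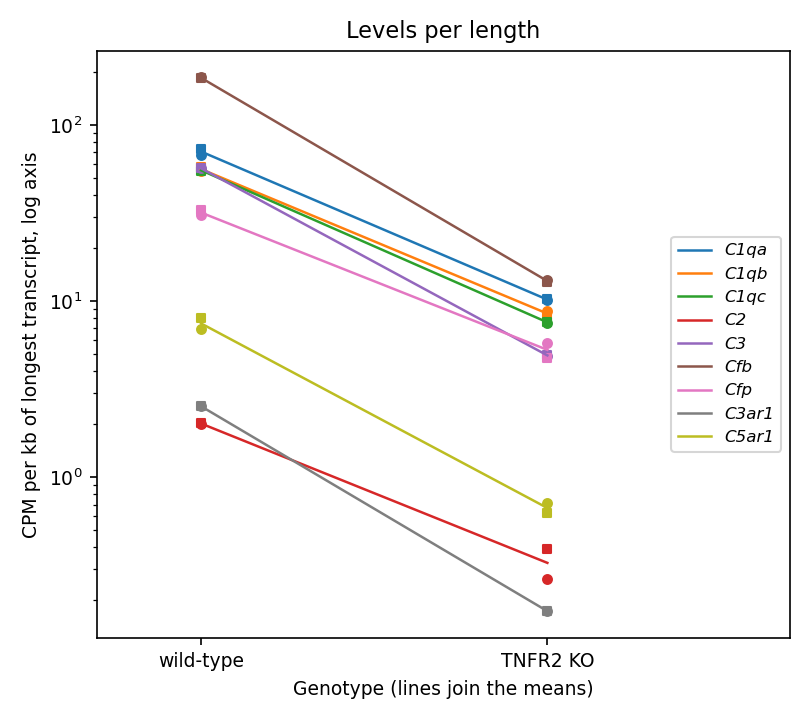
Levels per length in wild-type and TNFR2 KO, in CPM per kb of the longest annotated transcript on a log axis, with circles for replicate 1, squares for replicate 2 and lines joining the genotype means. The line of C3 crosses those of C1qb and C1qc. The line of C3ar1 crosses that of C2, whose counts are uncertain. Cfb is the highest in both genotypes, at 185 and 13.0 CPM per kb.

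The 9 log2-fold changes thus ran from -3.86 to -2.58 and were not all alike. C1qa, C1qb, C1qc, C2 and Cfp retained between 13.7% and 16.6% of the wild-type level in TNFR2 KO, and C3, Cfb, C3ar1 and C5ar1 retained between 6.87% and 8.96%. C3 was 4.14 and 3.8 times C1qa (ratio of CPM) in wild-type, and 2.39 and 2.36 times C1qa in TNFR2 KO. Cfb was 7.27 and 6.65 times C1qa in wild-type and 3.44 and 3.28 times C1qa in TNFR2 KO. The ratio of Cfb to C3 changed less, from 1.75 in both wild-type libraries to 1.44 and 1.39 in TNFR2 KO. Summed over the 9 genes, the level was 1086 and 1093 CPM in wild-type and 103 and 101 CPM in TNFR2 KO, and Cfb with C3 supplied 74.1% and 73.0% of it in wild-type but 59.5% and 60.2% in TNFR2 KO. These differences between members follow from the same values that selected them and were not tested.

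Other complement genes were taken from a list of 48 components, receptors and regulators, of which 47 were in the table and 24 could be tested. Of the 24, 13 were lower and 2 higher in TNFR2 KO (edgeR's quasi-likelihood test with the thresholds above), where 11.8% and 1.56% of all tested genes were. Their median log2-fold change was -1.59. The list was written with earlier results of these libraries known, so its counts are not independent evidence of a direction.

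All 4 tested genes of the C1r and C1s group, which holds the proteases that C1q activates and a gene like them, were called lower. C1ra fell from 7.78 and 6.46 CPM to 1.86 and 2.56 CPM (log2-fold change -1.70, adjusted p = 9.48e-06 in edgeR's test). C1rl, a C1r-like protease, fell from 9.44 and 7.92 CPM to 0.982 and 1.22 CPM, a log2-fold change of -2.99. C1s1 had 54 and 62 counts in wild-type and 2 and 4 counts in TNFR2 KO. C1rb, with 11 and 12 counts in wild-type and 0 in both TNFR2 KO libraries, was at least 3.29-fold lower when each TNFR2 KO library is set at 3 counts. The C1r and C1s genes come in near-copies, and 59.3% of the stretches of C1ra, 71.4% of C1rb and 33.5% of C1s1 occur elsewhere, so their counts are uncertain.

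C4b, the substrate that C1s cuts, measured 139 and 143 CPM in wild-type and 15.2 and 15.5 CPM in TNFR2 KO. Its log2-fold change was -3.20 (adjusted p = 5.52e-14 in edgeR's test). Of its stretches, 48.3% also occur in C4a, which was not analysed here. Ficolin A (Fcna), a starter of the lectin pathway, fell from 27 and 26.2 CPM to 4.24 and 4.37 CPM (log2-fold change -2.63, adjusted p = 1.44e-10 in edgeR's test). C6, which joins the membrane attack complex, fell from 8.44 and 7.35 CPM to 0.931 and 0.655 CPM, a log2-fold change of -3.29. Masp1, C8g and Hc (C5) were each under 1.5 CPM in every library and did not pass the test. Hc measured 0.791 and 1.3 CPM in wild-type and 0.853 and 0.655 CPM in TNFR2 KO (adjusted p = 0.343 in edgeR's test). Among the components and soluble factors that the liver is known for, Mbl1, Mbl2, Colec10, C8b, C9, Cfi, Vtn and Cpn1 had 0 counts in all 4 libraries, which allows up to 0.0936 CPM in the shallowest of them and covers counting error only.

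The regulators did not move as a group. The soluble inhibitors Serping1 (C1 inhibitor) and Clu (clusterin) were called lower, Serping1 from 1.61 and 1.82 CPM to 0.207 and 0.187 CPM (log2-fold change -3.09, adjusted p = 3.17e-05 in edgeR's test). Clu was under 1 CPM in every library. On the membrane, Cd55, which breaks up C3 convertases, was higher in TNFR2 KO, at 33.4 and 27.8 CPM in wild-type and 62.8 and 65.3 CPM in TNFR2 KO (log2-fold change 1.06, standard error 0.0699, adjusted p = 7.9e-08 in edgeR's test). It no longer passed the fold change threshold without wild-type replicate 2, at 0.94, or with scaling on NK cell genes, at 0.27. Cr1l (Crry), the broad membrane inhibitor of rodents, measured 105 and 107 CPM in wild-type and 138 and 135 CPM in TNFR2 KO, and its log2-fold change of 0.36 was under the threshold and turned to -0.43 when NK cell genes set the scaling. Cd55b, a copy of Cd55, was called lower from under 1 CPM, but its adjusted p was 0.0614 without wild-type replicate 1 and 0.0565 with DESeq2. Cd46, Cd59a and Cd59b did not pass the test.

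The other receptors differed in direction. C5ar2, the second receptor for C5a, lies 2.59 kb from C5ar1 and was lower, from 1.66 and 1.76 CPM to 0.724 and 0.468 CPM (adjusted p = 0.00235 in edgeR's test). Cd93, first described as a C1q receptor, was lower as well, from 82.4 and 79.3 CPM to 13.7 and 12.2 CPM (log2-fold change -2.64, standard error 0.0597). The integrin chains of complement receptors 3 and 4, which bind fragments of C3, are also carried by mature NK cells. Itgax was called higher, at 419 and 409 CPM in wild-type and 882 and 908 CPM in TNFR2 KO (log2-fold change 1.11, adjusted p = 3.07e-12 in edgeR's test), and stood at 0.32 with scaling on NK cell genes. Itgam, at 368 and 370.3 CPM in wild-type and 707 and 706 CPM in TNFR2 KO, did not reach the fold change threshold (log2-fold change 0.94, or 0.15 when NK cell genes set the scaling), and 68.1% of its stretches occur in other genes, mostly Gm49368. Their shared partner Itgb2 stood at 0.42 on the log2 scale, or at -0.37 when NK cell genes set the scaling. Cr2 and Vsig4, receptors of B cells and of some resident macrophages, had at most 3 counts in any library.

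**Figure D3:**
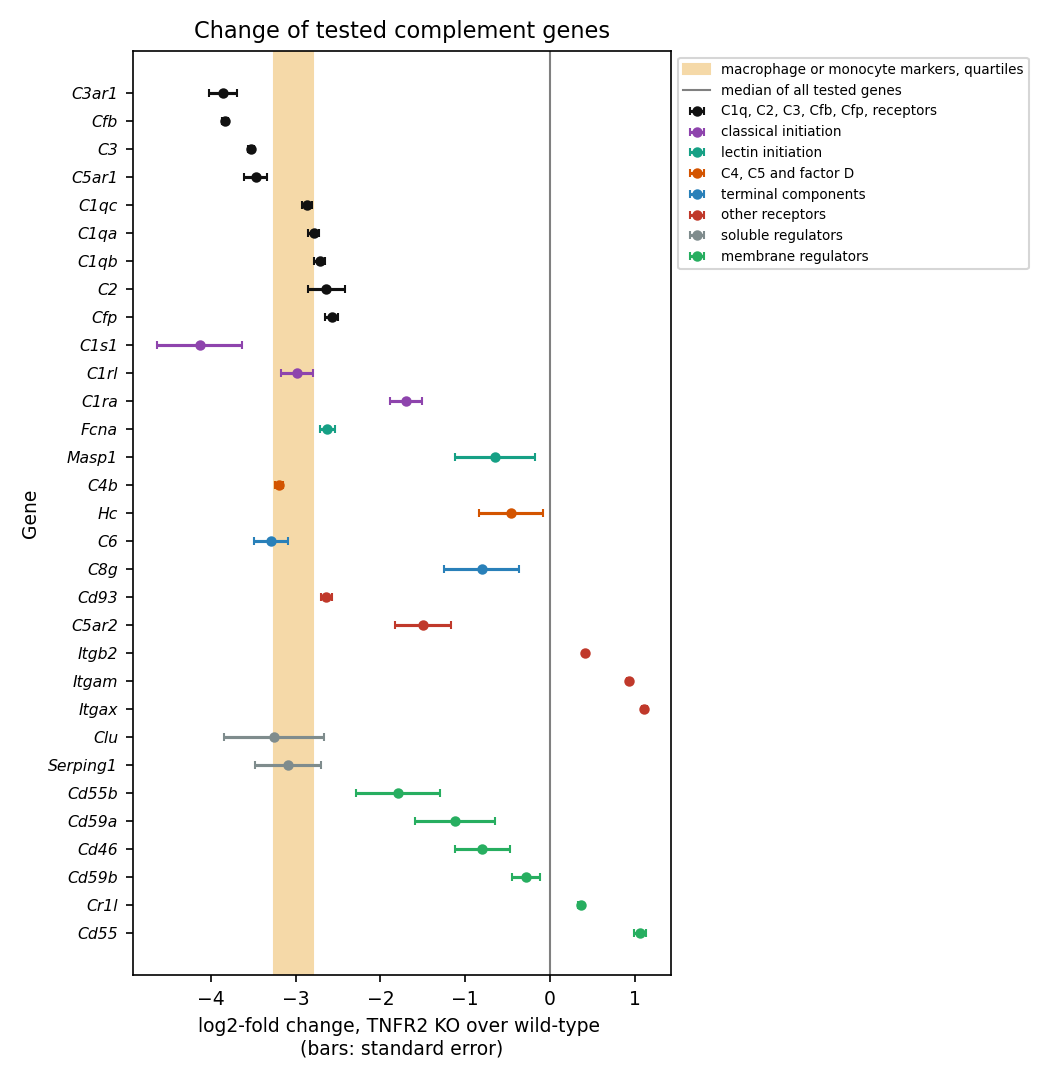
Log2-fold change in TNFR2 KO relative to wild-type for the 9 genes (black) and other tested complement genes by role, with bars for the standard error, a grey line for the median of all tested genes and a band for the quartiles of macrophage or monocyte markers. C1rb is left out because both TNFR2 KO libraries held 0 counts. Of the 9 genes, Cfb, C3, C3ar1 and C5ar1 lie left of the band. Among the others, C1s1 at -4.13 and C6 at -3.29 also do, Clu lies at its edge, and Itgax and Cd55 lie at 1.11 and 1.06.

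Most genes that border the 9 on the chromosome were not called in either direction. The nearest tested protein-coding genes around the C1q cluster were Kdm1a and Epha8, with log2-fold changes of -0.08 and 0.57, and neither passed the test. Nelfe, which lies on the other strand and ends 0.002 kb from the end of Cfb, measured 34.9 and 35 CPM in wild-type and 35.3 and 33.4 CPM in TNFR2 KO. Ehmt2, 0.204 kb from C2, measured 221 and 234 CPM in wild-type and 236 CPM in both TNFR2 KO libraries. Around C3, Cfp, C3ar1 and C5ar1, the neighbours Tnfsf14, Gpr108, Syn1, Elk1, Foxj2, Necap1 and Inafm1 had log2-fold changes between -0.36 and 0.23, and C5ar2 was the only neighbour called. Zbtb12, which lies inside the span of C2, had a log2-fold change of -0.64 at under 5 CPM and was not called. The C1q cluster lies 8.31 Mb from Tnfrsf1b on chromosome 4. Of 50 tested protein-coding genes between them, 5 were called lower and 2 higher, with a median log2-fold change of -0.03.

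Macrophage or monocyte markers were also lower in TNFR2 KO. The marker lists were written with earlier results of these libraries known, so their counts are not independent evidence of a direction. All 24 macrophage or monocyte markers of a hand-written list were called lower, where 11.8% of all tested genes were. These markers had a median log2-fold change of -3.02, quartiles of -3.25 and -2.79, and a range from -3.67 to -1.65. Their summed level was 3518 and 3479 CPM in wild-type and 450.0 and 451 CPM in TNFR2 KO, or 12.9% of wild-type, and none of them was at 0 in any library. The one with the highest CPM, Lyz2 (lysozyme), measured 771 and 778 CPM in wild-type and 114 and 110.4 CPM in TNFR2 KO, and Mpeg1 and Cybb had log2-fold changes of -3.29 and -3.22. Of the 9 complement genes, 4 (Cfb, C3, C3ar1 and C5ar1) had a log2-fold change below the lower quartile of the macrophage list. Of these, Cfb at -3.83 and C3ar1 at -3.86 were below every marker on it. C1qc lay inside the quartiles, and C1qa, C1qb, C2 and Cfp lay above the upper one. Csf1r, the macrophage growth factor receptor gene, was picked as a reference after its values were seen. C1qa was at 0.277 and 0.299 of the CPM of Csf1r in wild-type and 0.385 and 0.403 in TNFR2 KO. Cfb was at 2.02 and 1.99 of Csf1r in wild-type and 1.32 in both TNFR2 KO libraries. Such ratios depend on the reference gene. Lyz2 and C1qa were both at 14.5% of wild-type in TNFR2 KO, so C1qa did not shift against Lyz2. How far cells other than NK cells supplied the complement RNA was not tested.

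Markers of other cells did not all change in the same direction. The neutrophil list summed to 1025 and 1043 CPM in wild-type and 106 and 102 CPM in TNFR2 KO, with the highest CPM in Mpo at a log2-fold change of -6.50, and all 14 tested genes were called lower. The mast cell or basophil list was at 8.02% of wild-type, with 8 of 9 genes called lower, Prss34 at -6.18 among them. The mast cell protease gene Cma1 was called higher instead, at 21.9 and 23.1 CPM in wild-type and 71.9 and 73.3 CPM in TNFR2 KO. Dendritic cell or class II genes were at 8.65%, a sum carried by Cd74, H2-Ab1 and H2-Aa of the class II pathway. Their log2-fold changes were -3.58, -3.49 and -3.66, and 6 of the 10 genes on this list were called lower. Erythroid genes were at 21.3%, with 7 of 8 called lower and Hba-a1 at -2.39. Megakaryocyte or platelet genes were at 11.2%, a sum carried by Itga2b at -3.92, with 5 of 6 called lower and Gp1bb at 0.77 not called. None of the 8 T cell genes was called, and their sum was at 83.8%, with Cd4 at -0.55. The sum of the B cell genes was at 117% because it is mostly Ighm, which was at 0.33 and not called, while Cd79b was at -0.65 and not called and Blnk, at -1.86, was called lower. Stromal or endothelial genes summed to at most 6.35 CPM in any library, with Kdr at the highest CPM. The 14 NK cell genes summed to 16374 and 16290 CPM in wild-type and 29863 and 29618 CPM in TNFR2 KO, a difference that scaling on these genes removes by construction. Of them, 4 were called higher, among them Gzma at 1.08, while Gzmb at 0.75 and Il2rb at 0.44 were under the fold change threshold. The sorted cells thus carried NK cell RNA at high level in every library, with markers of several other lineages beside it. Their part in the differences above was not tested.

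**Figure D4:**
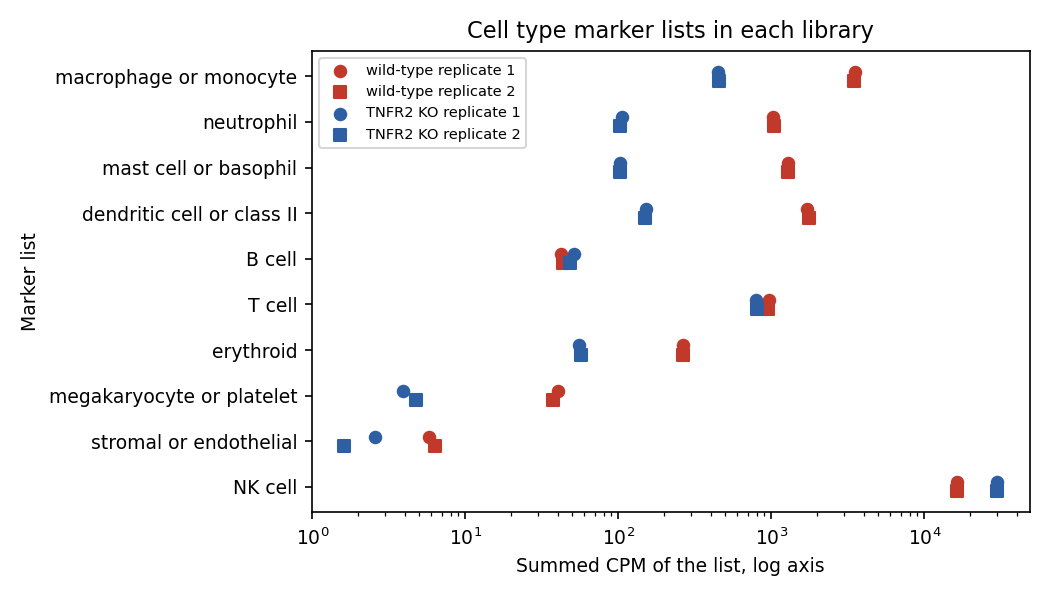
Summed CPM of each marker list in the 4 libraries, on a log axis, with wild-type in red, TNFR2 KO in blue, circles for replicate 1 and squares for replicate 2. The macrophage or monocyte list is at 3518 and 3479 CPM in wild-type and at 450.0 and 451 CPM in TNFR2 KO, while the NK cell list is higher in TNFR2 KO.

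**Figure D5:**
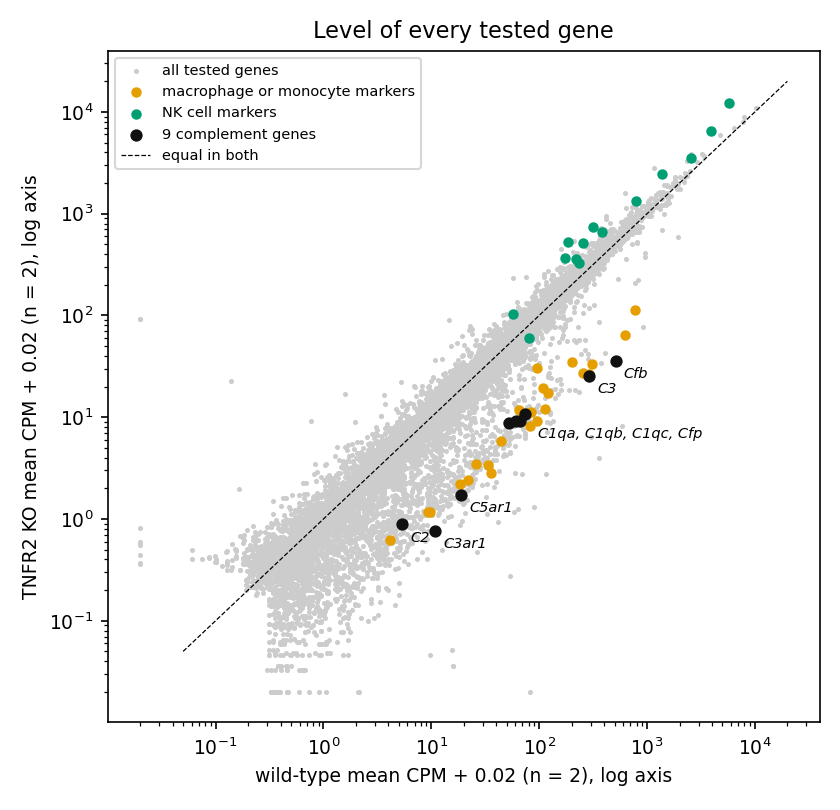
Mean level of every tested gene in wild-type (horizontal) and TNFR2 KO (vertical), in CPM with a small constant added on log axes, where the dashed line marks equal levels. The 9 complement genes (black) lie below the line, as do the macrophage or monocyte markers (orange). Cfb and C3ar1 have larger changes than any of these markers, and most NK cell genes (green) lie above the line.

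The genes whose pattern over the 4 libraries was most like the mean of the 9 were sought among 8756 other genes averaging 10 CPM or more, by the root mean square distance of their centred log2 CPM. The 8 nearest were Rps18-ps6, Clec4a3, Hk3, C4b, Tgfbi, Abcc3, Kcnj10 and Myof, at distances between 0.0226 and 0.0484 on the log2 scale. The 9 complement genes themselves lay between 0.134 and 0.357 from their own mean. Clec4a3, a C-type lectin receptor of myeloid cells, measured 54.9 and 53.7 CPM in wild-type and 6.2 and 6.12 CPM in TNFR2 KO. C4b was the only other complement gene among the 8. Rps18-ps6 is a pseudogene of a ribosomal protein gene, whose reads can be shared with near-identical copies. With 2 genotypes and close duplicates, this likeness reflects mostly the size of the difference between genotypes.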

How the data were processed

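The authors trimmed the reads with Trimmomatic (1.4 in the submitters' processing notes), assigned them to mm10 transcripts with kallisto (0.46.1) and summed them per gene with Tximport. The deposited values are these expected counts per gene symbol, not scaled between libraries. Their transcript annotation was not given in the sources used. A row without a gene name (between 0.0559% and 0.0728% of counts) was left out.

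Counts were rounded, filtered with filterByExpr, scaled by TMM and fitted across all genes with edgeR 4.0.16 (R 4.3.3), with a term for genotype alone, p-values adjusted by Benjamini-Hochberg, after the steps had been tested on simulated data. A call needed an adjusted p under 0.05 together with a log2-fold change beyond 1 in either direction. Standard errors are the log2-fold change over the square root of F. With 2 libraries a genotype, an exact test of a single value cannot reach significance. Labels state that same-numbered libraries share a spleen pool, and the deviations of such libraries had a correlation of 0.024 across genes.

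Positions, lengths and shared 31-base stretches are from GENCODE M21 (GRCm38), which stands in for the authors' annotation. The members and lists were chosen with earlier results of these data known. Named genes are the members, Tnfrsf1b, tested complement genes that were called or above 5 CPM, nearest tested neighbours, the most abundant markers of each list and the 8 genes of most similar pattern. Masp1, C8g, Hc, Cd46, Cd59a, Cd59b, Csf1r, Cma1, the genes at or near 0 counts and the interval on chromosome 4 were added after their values were seen. C4a was listed but not analysed here. The values of 1 listed gene are not reported here. Plots used matplotlib 3.10.9.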

Additional observations from a re-analysis of the deposited data

How the results depend on the processing

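All 9 genes kept their direction under every alternative that tested them, also with each library left out in turn. They were called lower with DESeq2 1.42.0, other scalings, no filter and the replicate block. The genes were selected on this difference in the same libraries, so nothing is read from that count. Among all tested genes, 1446 of 13822 were called lower with DESeq2 and 3860 of 13822 with scaling on NK cell genes. C2 and C3ar1 were not tested when a mean of at least 10 CPM was required, which left 7. Apart from scaling on NK cell genes, their log2-fold changes moved by at most 0.29, for C2 without TNFR2 KO replicate 2, where it was -2.93. Scaling on NK cell genes moved the median of all genes to -0.79 and lowered each of the 9 by the same amount, to between -4.65 (C3ar1) and -3.37 (Cfp). It called 3860 genes lower and 28 higher, against 1627 and 215, and among the other complement genes 19 lower and 0 higher, against 13 and 2. Itgb2 and Cr1l then turned to -0.37 and -0.43, and Itgax and Cd55 fell under the fold change threshold at 0.32 and 0.27. A mean of at least 10 CPM, which tests fewer genes, called 424 lower and 56 higher, with 3 other complement genes lower. The replicate block called 1616 genes lower and changed no call of a complement gene. When single libraries were left out, the number of other complement genes called higher was between 1 and 2. C2, C3ar1 and C5ar1 in TNFR2 KO, at between 24 and 70 counts, are the values that depth limits most.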
